A study of Homo sapiens with 9 samples.

Results

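The Brunello kinome library carried sgRNAs against 7 lipid kinases of headgroup and sphingolipid metabolism: CHKA, CHKB, ETNK1, ETNK2, SPHK1, SPHK2 and CERK. They were chosen by gene symbol, and all 7 were found among the 763 targeted genes, with 28 of the 3052 targeting sgRNAs, 4 per gene. All 28 passed the minimum mean of 30 reads, as did 3046 of the targeting sgRNAs as a whole. The library was delivered by lentivirus to RH4, a rhabdomyosarcoma line that carries the PAX3::FOXO1 fusion, so every group shares the line, Cas9 and the sgRNA pool. The 3 groups had 3 libraries each. Pralatrexate cells grew for 10 days with 1.5 nM of this antifolate, which inhibits dihydrofolate reductase. Vehicle cells grew for the same 10 days without drug, and baseline cells were taken at the end of puromycin selection (0.25 µg/ml), before a 72 h recovery. The labels do not say whether the 3 libraries of a group came from separate cultures, and the study calls them both cultures and technical replicates. The p-values of tests over libraries thus measure only the spread between libraries. Those of rank aggregation, which combines the ranks of the 4 sgRNAs of a gene, treat these sgRNAs as independent units.

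Choline kinases (CHKA and CHKB) and ethanolamine kinases (ETNK1 and ETNK2) phosphorylate the headgroup precursors in the opening step of the Kennedy pathway, which makes phosphatidylcholine and phosphatidylethanolamine, the main phospholipids of cell membranes. Sphingosine kinases (SPHK1 and SPHK2) make sphingosine 1-phosphate, a signalling lipid that is also the substrate of the exit step of sphingolipid breakdown. CERK phosphorylates ceramide to ceramide 1-phosphate. CHKA has been studied as a cancer target because many tumours hold raised phosphocholine, and SPHK1 because of the growth-promoting signals of its product.

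The reads of an sgRNA stand for the share of cells carrying it, so each level given here is the abundance of such cells, not expression of the gene. Editing and loss of the protein were not measured for these sgRNAs, so knockout here means carrying the sgRNA. Libraries held 2468136 to 4227230 reads with pralatrexate, 3194504 to 4602712 with vehicle and 3483100 to 4431337 at baseline. The 28 sgRNAs took 0.777 to 0.865% of a library. No sgRNA of the 7 genes was thinly covered, since their reads ran from 213 to 3660 in a single library. Levels are given as counts scaled to library size (CPM), and the level of a gene as the mean log2 CPM of its 4 sgRNAs.

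On GRCh38 (GENCODE v44), CHKA spans chr11:68052859-68121444 on the minus strand, with 12 coding exons, and CHKB spans chr22:50578959-50601455 on the minus strand, with 11. ETNK1 lies at chr12:22625075-22690665 (plus strand) and ETNK2 at chr1:204131062-204152044 (minus strand), with 8 coding exons each. SPHK1 lies at chr17:76376584-76387860 (plus strand, 5 coding exons), SPHK2 at chr19:48619291-48630717 (plus strand, 6 coding exons) and CERK at chr22:46684410-46738252 (minus strand, 13 coding exons). These are gene spans, not cut sites, because the files name sgRNAs without their sequences. CHKB shares its span with the readthrough gene CHKB-CPT1B, and CHKB, SPHK1 and SPHK2 overlap a gene on the other strand (MAPK8IP2, PRPSAP1 and DBP). The coding exons of the canonical transcripts hold between 103 (ETNK1) and 472 (SPHK2) targets of 20 bases next to an NGG motif, and no pair among the 7 genes shares a single one of them.

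Vehicle at day 10 was set against baseline to ask which knockouts were lost or gained as RH4 cells grew without drug. SPHK2 knockout cells had the largest decrease of the 7, at −0.38 ± 0.30 on the log2 scale (SD over 4 sgRNAs), or 0.769 of baseline, followed by CHKA at −0.24 ± 0.41. SPHK1 had the largest positive change, at 0.23 ± 0.23, but stood at −0.11 when libraries were scaled on the non-targeting sgRNAs. CHKB (0.08), ETNK1 (0.07), CERK (0.07) and ETNK2 (−0.02) lay near 0, or at −0.26, −0.26, −0.26 and −0.35 with that scaling. No gene of the 7 was called by rank aggregation of its sgRNAs in either direction at an FDR of 0.05, where 6.68% of the 763 genes were depleted and 0.393% enriched. The lowest FDR was that of SPHK2 (0.161; unadjusted exact p = 0.0183, the only one of the 7 under 0.05), followed by CHKA (0.743). By log2 fold change SPHK2 ranked 98th and CHKA 143rd from the bottom of 763 genes, and SPHK1 704th. The median of the 7 was 0.07, beside 0.02 over all targeted genes.

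**Figure D1:**
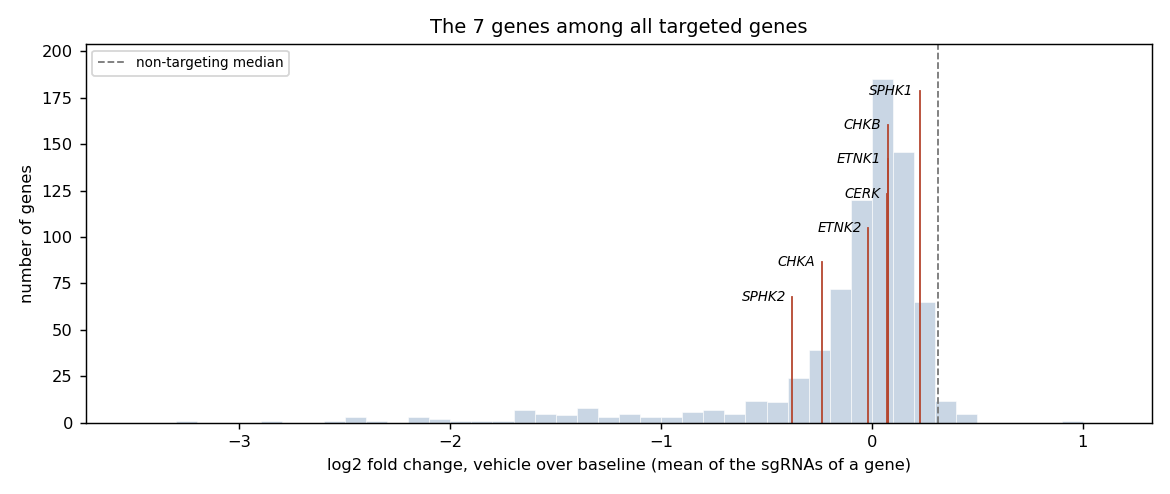
Histogram of the log2 fold change of vehicle over baseline for the 763 targeted genes (x axis, mean over the sgRNAs of a gene; y axis, number of genes), with red lines at the 7 lipid kinases and a dashed line at the median of the non-targeting sgRNAs. SPHK2 (−0.38) and CHKA (−0.24) lie on the left shoulder, SPHK1 (0.23) on the right, and all 7 lie below the non-targeting median of 0.31.

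**Figure D2:**
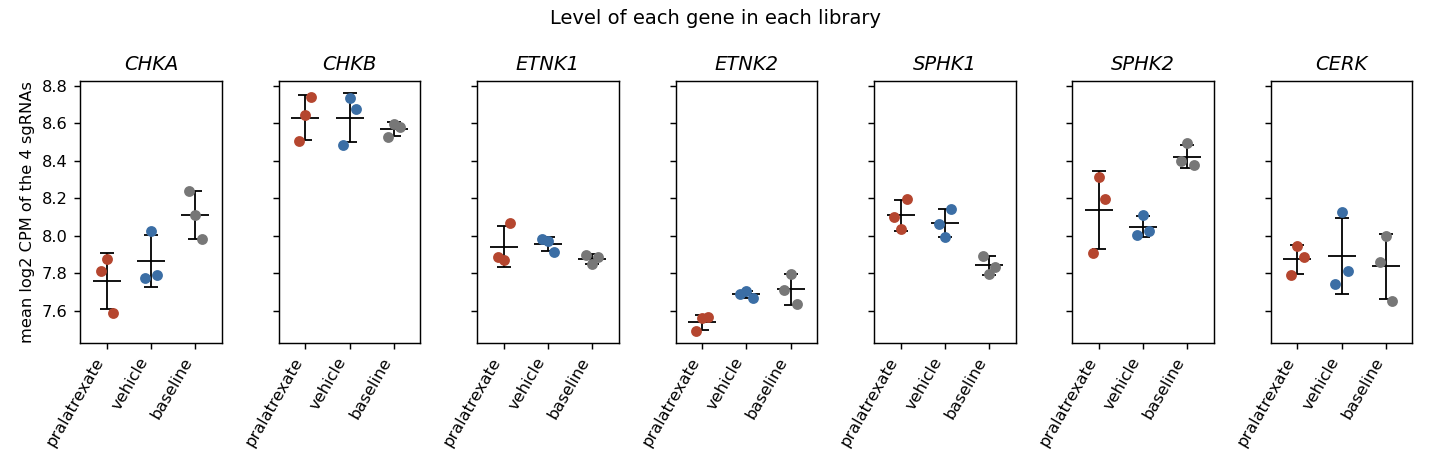
Mean log2 CPM of the 4 sgRNAs of each gene (y axis) in each library (points) of the pralatrexate, vehicle and baseline groups, with the mean and SD of 3 libraries as bars. SPHK2 libraries at day 10 lie below all baseline libraries and SPHK1 libraries at day 10 lie above all of them on this scale (its change in vehicle is −0.11 with non-targeting scaling). For vehicle libraries alone, 24.4% of all targeted genes lay below baseline and 19.5% above. The share for both day 10 groups together was not examined.

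SPHK2 is the sphingosine kinase found largely in the nucleus and at mitochondria. Its mean log2 CPM was 8.01, 8.11 and 8.03 in vehicle libraries, against 8.40, 8.49 and 8.38 in baseline libraries. All vehicle libraries lay below all baseline libraries. Per sgRNA, the decrease was shared by 3 of the 4. SPHK2 sgRNA 4 had 155, 184 and 157 CPM with vehicle, against 249, 261 and 288 CPM at baseline, and fell by 0.69 ± 0.18 (SE; FDR 0.0060, edgeR). SPHK2 sgRNA 3 had 279, 301 and 282 CPM with vehicle, against 387, 396 and 403 CPM at baseline (log2 fold change −0.46 ± 0.12, edgeR FDR 0.0081). SPHK2 sgRNA 2 fell by 0.40 ± 0.13 (edgeR FDR 0.026). In each of these 3 sgRNAs the vehicle libraries lay below the baseline libraries without overlap, which is no support apart from their edgeR calls. The share of all sgRNAs that separate in this way was not examined. SPHK2 sgRNA 1 differed, with 322, 363 and 342 CPM under vehicle, against 320, 366 and 316 CPM at baseline (log2 fold change 0.03 ± 0.13). The calls of sgRNAs 3 and 4 held whichever of the 6 libraries was left out. That of sgRNA 2 was lost without baseline 1, baseline 2, vehicle 2 or vehicle 3, with an FDR of up to 0.166.

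SPHK1, the mainly cytoplasmic sphingosine kinase, moved the other way on this scale. Its mean log2 CPM was 8.06, 8.00 and 8.14 with vehicle, against 7.89, 7.80 and 7.83 at baseline, again without overlap. All 4 sgRNAs had a positive log2 fold change, from 0.01 for sgRNA 1 to 0.53 ± 0.18 (SE) for sgRNA 3, the only one past the threshold (edgeR FDR 0.035). How many of all genes had 4 positive sgRNAs was not examined. SPHK1 sgRNA 3 had 270, 184 and 236 CPM with vehicle, against 166, 144 and 169 CPM at baseline. Its call was kept without vehicle 2 and lost without any one of the other 5 libraries (FDR up to 0.164). With libraries scaled on the non-targeting sgRNAs, SPHK1 stood at −0.11 and sgRNA 3 at 0.20 (edgeR FDR 0.384), so the direction of SPHK1 depended on the scaling.

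CHKA, the choline kinase whose loss is lethal to mouse embryos, had sgRNAs that disagreed. CHKA sgRNA 2 had 234, 172 and 163 CPM with vehicle, against 308, 292 and 287 CPM at baseline, and fell by 0.64 ± 0.17 (SE; edgeR FDR 0.0054), a call that held without any single library. CHKA sgRNA 4 fell by 0.44 ± 0.14 (edgeR FDR 0.031), a call lost without baseline 1, baseline 2, vehicle 1 or vehicle 3 (FDR up to 0.187). CHKA sgRNA 3 stood at −0.19 ± 0.17, and sgRNA 1 at 0.32 ± 0.17, with 207, 280 and 264 CPM under vehicle, against 206, 193 and 204 CPM at baseline. The SD over the CHKA sgRNAs (0.41) was larger than that of 88.7% of the targeted genes. The mean log2 CPM of CHKA was 7.78, 8.02 and 7.79 with vehicle, against 8.24, 8.11 and 7.98 at baseline. These groups overlapped, because vehicle 2 lay above baseline 3. Without sgRNA 2 the mean change of CHKA was −0.10.

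CHKB, the choline kinase linked to muscle disease when mutated, showed no such decrease. Its mean log2 CPM was 8.48, 8.74 and 8.67 with vehicle, against 8.53, 8.60 and 8.58 at baseline, with overlap, and 3 of its 4 sgRNAs had a positive log2 fold change. The difference of means was 0.06, with a 95% interval of −0.11 to 0.23 (limma on gene means). ETNK1, a kinase specific for ethanolamine, had 7.99, 7.97 and 7.91 with vehicle, against 7.90, 7.85 and 7.89 at baseline. Its vehicle libraries lay just above the baseline libraries (interval of the difference −0.07 to 0.23). ETNK2, its paralogue, had 7.69, 7.70 and 7.67 with vehicle, against 7.71, 7.80 and 7.63 at baseline (interval −0.17 to 0.11). CERK had 7.74, 8.12 and 7.81 with vehicle, against 7.86, 8.00 and 7.65 at baseline (interval −0.16 to 0.27). No sgRNA of these 4 genes passed the threshold, and ETNK1 and ETNK2 had the tightest sgRNAs of the 7 (SD 0.09 and 0.10).

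Across the 28 sgRNAs, 5 fell and 1 rose by edgeR's test, with 12.8% of all sgRNAs lower and 6.26% higher. With non-targeting scaling 10 were lower and none higher, beside 1421 lower and 11 higher of all 3145. The 6 belonged to SPHK2 (3 sgRNAs), CHKA (2) and SPHK1 (1). Of the 7 genes, vehicle libraries lay below baseline libraries without overlap for SPHK2 alone, and above for SPHK1 and ETNK1, where 24.4% and 19.5% of all targeted genes did so. When the reads of a gene's sgRNAs were summed first and tested with edgeR across libraries, SPHK2 (−0.36 ± 0.08, SE; FDR 0.00016) and CHKA (−0.26 ± 0.08, FDR 0.011) were lower and SPHK1 (0.21 ± 0.07, FDR 0.024) was higher, though at −0.12 (FDR 0.139) with non-targeting scaling. That test treats the 4 sgRNAs as 1 and takes no account of their disagreement, and it called 21% of all genes lower and 14.4% higher. The SPHK2 call on summed reads held without each of the 6 libraries in turn (FDR up to 0.0043). The CHKA call was lost without baseline 1 (FDR 0.142), vehicle 1 (0.0767) or vehicle 3 (0.0667), and the SPHK1 call without baseline 2 (0.120), baseline 3 (0.0922) or vehicle 3 (0.0928).

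The non-targeting sgRNAs, which have no target in the genome, set a second reference. Their log2 fold change from baseline to vehicle was 0.31 ± 0.13 (median, SD over 99 sgRNAs), while the median of targeting sgRNAs was 0.01. Relative to that median SPHK2 stood at −0.69, CHKA at −0.55, ETNK2 at −0.33, CERK, ETNK1 and CHKB at −0.24 each, and SPHK1 at −0.09. Of the 28 sgRNAs, 10 lay below the lowest non-targeting sgRNA (−0.05) and none above the highest (0.67), and of all 3046 targeting sgRNAs 40.7% lay below. The order of the 7 genes at both ends, SPHK2 and CHKA lowest and SPHK1 highest, was the same on either scale, since scaling moves all genes of a library together.

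**Figure D3:**
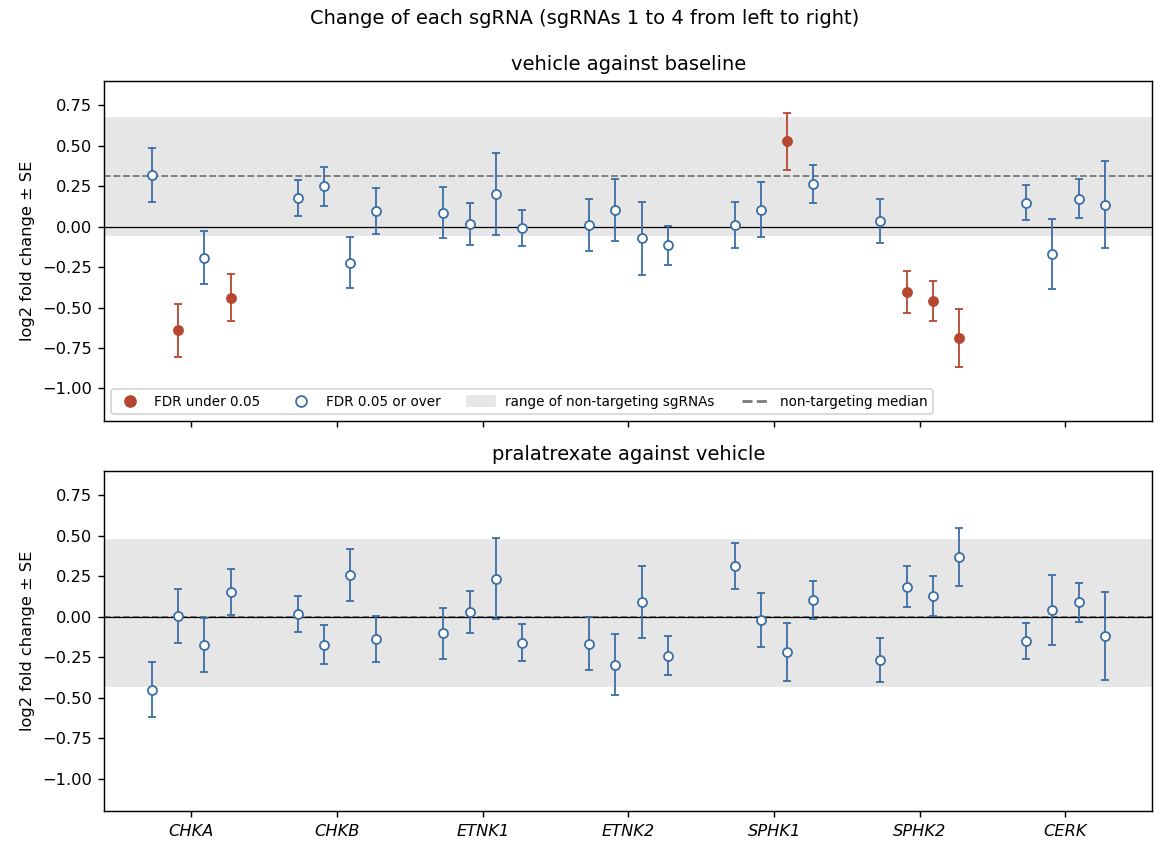
Log2 fold change of each of the 28 sgRNAs with its SE (y axis), with vehicle against baseline in the upper plot and pralatrexate against vehicle in the lower one, 4 sgRNAs per gene from left to right. Filled red points passed an FDR of 0.05, the grey band spans the 99 non-targeting sgRNAs and the dashed line is their median. The 6 sgRNAs that passed are those of CHKA, SPHK1 and SPHK2 with vehicle, and none passed with pralatrexate against vehicle.

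Pralatrexate was set against vehicle at day 10 to find knockouts that alter the response of RH4 cells to the drug. No gene of the 7 and none of their 28 sgRNAs passed the threshold in either direction. Few calls were made over the whole library, with 0.524% of genes depleted and 0% enriched by rank aggregation, and with 0.0318% of sgRNAs lower and 0% higher by edgeR. On summed reads 0.786% of genes were lower and 0.131% higher, again with none of the 7. At an unadjusted p of 0.05, ETNK2 stood on the depleted side (exact rank aggregation p = 0.043, FDR 0.983) and SPHK2 on the enriched side (exact rank aggregation p = 0.0419, FDR 0.882). The non-targeting median was 0.00 here.

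ETNK2 had the largest decrease of the 7 with drug, at −0.15 ± 0.17 (SD over 4 sgRNAs), with 3 of 4 sgRNAs lower. Its mean log2 CPM was 7.49, 7.56 and 7.56 with pralatrexate, against 7.69, 7.70 and 7.67 with vehicle. ETNK2 was the only one of the 7 whose pralatrexate libraries all lay below the vehicle libraries, as was the case for 3.41% of all targeted genes. ETNK2 sgRNA 4 had 340, 345 and 286 CPM with pralatrexate, against 379, 358 and 408 CPM with vehicle (−0.24 ± 0.12, SE; edgeR FDR 0.901). ETNK2 sgRNA 3 went the other way, at 0.09 ± 0.22. Its paralogue ETNK1 had 7.89, 7.87 and 8.07 with pralatrexate, against 7.99, 7.97 and 7.91 with vehicle, which overlapped (log2 fold change 0.00).

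SPHK2 stood at 0.10 ± 0.27 and SPHK1 at 0.04 ± 0.22 in pralatrexate against vehicle. The mean log2 CPM of SPHK2 was 7.91, 8.31 and 8.20 with pralatrexate, against 8.01, 8.11 and 8.03 with vehicle. Pralatrexate 1 lay below all vehicle libraries and the other 2 above them. SPHK2 sgRNA 4 varied most, with 150, 228 and 264 CPM under pralatrexate, against 155, 184 and 157 CPM under vehicle (0.37 ± 0.18, SE; edgeR FDR 0.882). SPHK2 sgRNA 1 had 238, 338 and 278 CPM under pralatrexate, against 322, 363 and 342 CPM under vehicle (−0.27 ± 0.14, edgeR FDR 0.901). The vehicle libraries enter both this comparison and that with baseline, with opposite sign, so the values of an sgRNA in both are not independent.

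CHKA stood at −0.12 ± 0.26 with drug, and its sgRNA 1 had the lowest log2 fold change of the 28. CHKA sgRNA 1 had 211, 189 and 150 CPM with pralatrexate, against 207, 280 and 264 CPM with vehicle (−0.45 ± 0.17, SE; edgeR FDR 0.806). It ranked 38th from the bottom of 3145 sgRNAs and was the only one of the 28 outside the non-targeting range (lowest −0.43). Of all 3046 targeting sgRNAs, 45 (1.48%) lay below that range and 29 above it. The 95% interval of the difference between pralatrexate and vehicle, from limma on gene means, was −0.30 to 0.09 for CHKA, −0.17 to 0.17 for CHKB, −0.16 to 0.13 for ETNK1 and −0.29 to −0.01 for ETNK2. It was −0.11 to 0.19 for SPHK1, −0.10 to 0.28 for SPHK2 and −0.23 to 0.19 for CERK. None of these intervals is adjusted for the number of genes, and the adjusted limma FDR of ETNK2 was 0.864.

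Same-numbered pralatrexate and vehicle libraries deviated together, so the 3 differences within pairs were also taken. SPHK1 was higher by 0.04, 0.04 and 0.05 in pairs 1, 2 and 3, and ETNK2 stood at −0.20, −0.14 and −0.10. Both thus kept 1 sign in all 3 pairs, as did 26.1% of all targeted genes. SPHK2 (−0.10, 0.20 and 0.17) and the other 4 genes changed sign between pairs. In limma with the pair as a block, the interval was −0.12 to 0.21 for SPHK1 (FDR 0.997) and −0.32 to 0.02 for ETNK2 (FDR 0.887). None of the 7 passed, beside 12 of all 763 targeted genes.

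Pralatrexate at day 10 was also set against baseline. These values share the baseline libraries with the vehicle comparison and are given side by side with it. SPHK2 stood at −0.27 ± 0.06 (SD over 4 sgRNAs), with all 4 sgRNAs lower, against −0.38 ± 0.30 and 3 of 4 in vehicle. Only 3.54% of the targeted genes had sgRNAs closer together than those of SPHK2 here. This SD was below the SE of each of the 4 sgRNAs (0.12 to 0.18), so it does not show closer agreement under drug. The rank aggregation FDR of SPHK2 was 0.0791 (exact p = 0.0064), the lowest of the 7, and still above the threshold. Without pralatrexate 1 the change of SPHK2 was −0.17 and its FDR 0.934. CHKA stood at −0.36 ± 0.21 with all 4 sgRNAs lower (FDR 0.266), and SPHK1 at 0.27 ± 0.13 with all 4 higher (FDR 0.617), or −0.05 with non-targeting scaling. The share of all genes with all 4 sgRNAs in 1 direction was not examined. ETNK2 stood at −0.17 (FDR 0.814), while ETNK1 (0.07), CHKB (0.07) and CERK (0.04) lay near 0. With non-targeting scaling ETNK2 stood at −0.49, ETNK1 at −0.25, CHKB at −0.26 and CERK at −0.28. None of the 7 was called, where 7.21% of genes were depleted and 0.262% enriched.

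Among the 28 sgRNAs, 2 fell and 1 rose in pralatrexate against baseline, where 13.1% of all sgRNAs were lower and 5.98% higher. With non-targeting scaling 14 were lower and none higher, beside 1350 lower and 8 higher of all 3145. CHKA sgRNA 2 had 182, 221 and 169 CPM with pralatrexate, against 308, 292 and 287 CPM at baseline (−0.64 ± 0.17, SE; edgeR FDR 0.0060), close to its level with vehicle. It was the only sgRNA of the 28 called against baseline under both treatments. ETNK2 sgRNA 4 fell by 0.36 ± 0.12 (edgeR FDR 0.038) and SPHK1 sgRNA 4 rose by 0.37 ± 0.12 (edgeR FDR 0.026). These last calls each held in 2 of the 6 fits that left out a library, and SPHK1 sgRNA 4 stood at 0.05 with non-targeting scaling. On summed reads CHKA (−0.38 ± 0.08, SE; FDR 0.00028), SPHK2 (−0.28 ± 0.08, FDR 0.0028) and ETNK2 (−0.24 ± 0.08, FDR 0.017) were lower and SPHK1 (0.28 ± 0.07, FDR 0.0019) was higher, or at −0.03 (FDR 0.729) with non-targeting scaling, with 22.8% of all genes lower and 16.1% higher. The SPHK2 call on summed reads was lost without pralatrexate 1 (FDR 0.0552), and the ETNK2 call without baseline 2 (0.129) or pralatrexate 1 (0.0501).

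Each pair of paralogues was compared within a library, where scaling cancels. The difference SPHK1 minus SPHK2 in mean log2 CPM was 0.19, −0.28 and 0.00 with pralatrexate, 0.06, −0.11 and 0.12 with vehicle, and −0.50, −0.70 and −0.54 at baseline. It averaged −0.03 ± 0.24 with pralatrexate, 0.02 ± 0.12 with vehicle and −0.58 ± 0.10 at baseline (SD, n = 3 each), which is 0.60 higher in vehicle and 0.55 higher in pralatrexate than at baseline, with no overlap. For CHKA minus CHKB the difference was −0.70, −0.77 and −1.15 with pralatrexate, −0.71, −0.71 and −0.89 with vehicle, and −0.28, −0.49 and −0.60 at baseline. It was 0.31 lower in vehicle and 0.42 lower in pralatrexate than at baseline, also with no overlap. ETNK1 minus ETNK2 was 0.40, 0.31 and 0.50 with pralatrexate, 0.29, 0.27 and 0.24 with vehicle, and 0.19, 0.05 and 0.25 at baseline. The pralatrexate libraries lay above the others for this pair, by 0.13 over vehicle and 0.24 over baseline. How often other pairs of genes separate in this way was not examined. For single genes, vehicle libraries lay below baseline libraries without overlap in 24.4% of all targeted genes and above in 19.5%.

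The exact permutation test (two-sided, 3 libraries against 3) gave p = 0.1 for each of these differences without overlap, which is the smallest value this test can give with 3 libraries a side, and 0.15 after Benjamini-Hochberg adjustment over 9 tests. This test could not pass the threshold whatever the size of the difference, so the values and their spread are the description. Between pralatrexate and vehicle, the CHKA and CHKB difference changed by −0.11 (exact permutation p = 0.7) and the SPHK1 and SPHK2 difference by −0.05 (exact permutation p = 0.8).

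**Figure D4:**
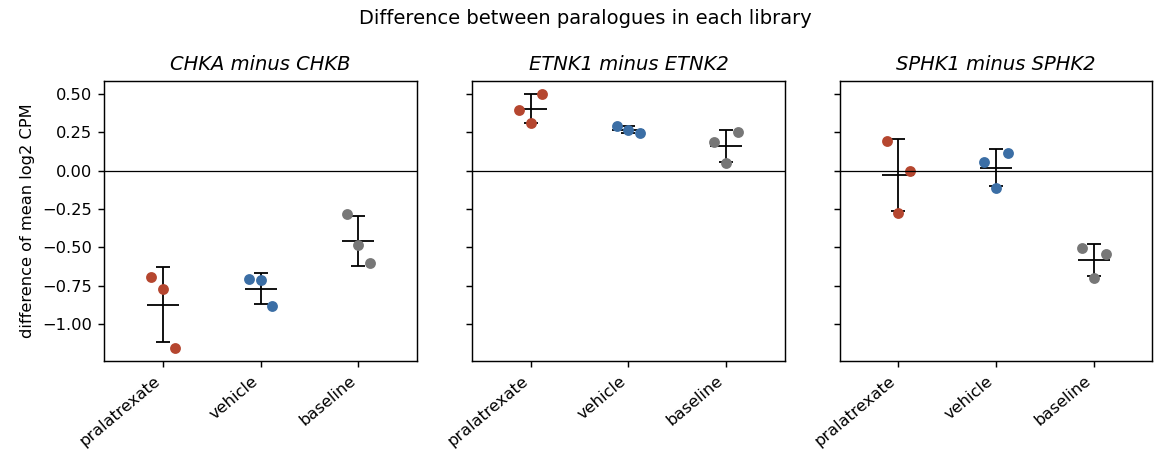
Difference in mean log2 CPM between paralogues (y axis) in each library (points) of the pralatrexate, vehicle and baseline groups, with the mean and SD of 3 libraries as bars. SPHK1 minus SPHK2 lies between −0.28 and 0.19 in the day 10 libraries and between −0.70 and −0.50 at baseline, and CHKA minus CHKB is below its baseline values in all day 10 libraries.

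Other lipid kinases of the library and 2 genes of ceramide handling were set beside the 7. Of 11 diacylglycerol and acylglycerol kinases, which make phosphatidic or lysophosphatidic acid, none was called by rank aggregation in any of the 3 comparisons, and likewise for COL4A3BP, the ceramide transfer protein, and CERKL, a homologue of CERK. In vehicle against baseline the diacylglycerol and acylglycerol kinases had a median of −0.02, beside 0.07 for the 7 genes, and ran from DGKG (−0.21 ± 0.74) to DGKB (0.29 ± 0.17). DGKG had 1 of 4 sgRNAs lower, and DGKB none. COL4A3BP stood at −0.05 and CERKL at 0.00. On summed reads DGKB, DGKQ and DGKE were higher and DGKA lower in vehicle against baseline, genes named here after their values were seen, except DGKB. These 4 of 11 stand beside 21% of all genes lower and 14.4% higher in that test. In pralatrexate against baseline the same test again called DGKB, DGKQ and DGKE higher and DGKA lower, and COL4A3BP lower (−0.28, FDR 0.011), beside 22.8% of all genes lower and 16.1% higher. With pralatrexate against vehicle the 13 genes of both lists lay between −0.15 (COL4A3BP) and 0.10 (DGKH), and none was called on summed reads either.

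Across the 9 libraries the genes whose mean log2 CPM followed SPHK2 most closely were BMPR1A, a BMP receptor (Pearson's r = 0.94), STK11, the kinase LKB1 (r = 0.93), and MAP3K4, a stress-activated MAP kinase kinase kinase (r = 0.92), out of 762 other genes. Within the 6 day 10 libraries these values were 0.86, 0.81 and 0.92. These are descriptions, since libraries of a group share their day and treatment and all points share the library scaling. In vehicle against baseline BMPR1A stood at −0.49, STK11 at −0.22 and MAP3K4 at −0.80. SPHK1 ranked 706th of the 762 by the same measure (r = −0.76), and CHKA 162nd (r = 0.62).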

How the data were processed

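Genomic DNA of RH4 cells was amplified over the sgRNA cassette and sequenced in 9 libraries. The authors deposited raw counts of reads per sgRNA (3152 sgRNAs, 100 of them non-targeting), not normalized, and the submitters' processing notes name Bowtie 1.0.0. PCR copies counted as separate reads. The deposited gene tables of the authors' own comparisons (fold changes, rank-aggregation scores, p-values) were not used. The study's main text gives a longer puromycin selection than its methods and the labels, which were followed here.

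sgRNAs with a mean of at least 30 reads (3145) were fitted with edgeR 4.0.16 in R 4.3.3 (quasi-likelihood, TMM scaling, 9 libraries, group as the only term), adjusted over all sgRNAs. Genes were tested by robust rank aggregation of one-sided sgRNA p-values under 0.25, in place of MAGeCK, with the p of the score computed exactly for independent uniform ranks and adjusted over 763 genes per direction. log2 CPM used a prior count of 2. Within groups, counts of any pair of libraries differed beyond sampling noise (chi-square over its degrees of freedom 10.7 to 25.7), so none was a repeat deposit. Same-numbered pralatrexate and vehicle libraries deviated together (r of deviations from group means 0.175 to 0.198 in all 3 pairs). Same-numbered baseline and vehicle libraries did so only weakly (0.02 to 0.07, against −0.07 to 0.01 for differently numbered ones). Baseline and pralatrexate libraries did not pair (−0.03 to 0.02, against −0.04 to 0.05). The alternatives were a replicate block, DESeq2 1.42.0, non-targeting scaling, other filters, fits of 2 groups, summed reads, limma 3.58.1 on gene means, and leaving out libraries or 1 sgRNA. The scripts were tested on simulated data. The members and lists were chosen with earlier results of these data known. The rule named all 7 genes and their sgRNAs, list genes called in any comparison, each list's lowest and highest change from baseline to vehicle, and the 3 genes most correlated with the member that changed most.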

Additional observations from a re-analysis of the deposited data

How the results depend on the processing

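No gene of the 7 was called by rank aggregation under the replicate block (0 genes called in each comparison, and 6, 0 and 3 sgRNAs called in vehicle against baseline, pralatrexate against vehicle and pralatrexate against baseline, as without the block), DESeq2, non-targeting scaling, other filters, fits of 2 groups, leaving out a library or leaving out the strongest sgRNA. Of 329 values of single genes under alternatives, 317 kept their call and 12, all from summed reads or limma, passed the threshold that rank aggregation had missed. Summed reads called 3 of the 7 genes in vehicle against baseline and 4 in pralatrexate against baseline, and limma on gene means called 2 and 3. Over all genes summed reads called 160 lower and 110 higher in vehicle against baseline (rank aggregation 51 and 3) and 174 and 123 in pralatrexate against baseline (55 and 2), limma 151 and 69, and 152 and 75, and each called 1 higher in pralatrexate against vehicle, where rank aggregation called 0. DESeq2 left 1 enriched gene in vehicle against baseline. Of the 11 diacylglycerol and acylglycerol kinases summed reads called 4 in each comparison with baseline and limma 2 and 3, and of the ceramide genes summed reads called 1 in pralatrexate against baseline. DESeq2 called 7 of the 28 sgRNAs in vehicle and 5 in pralatrexate against baseline. Of all sgRNAs it called 478 lower and 336 higher, and 460 and 315. The replicate block called 433 and 237, and 431 and 211. Non-targeting scaling called 10 of 28 in vehicle and 14 in pralatrexate (all lower). It called 1421 and 1350 of all sgRNAs lower (401 and 412 with TMM). Without 1 library, sgRNA calls ran from 3 to 5 in vehicle against baseline (3 without baseline 1, baseline 2 or vehicle 3) and from 1 to 4 in pralatrexate against baseline (1 without baseline 2 or pralatrexate 3). Enriched genes ran from 1 to 5 in each comparison with baseline, and depleted genes in pralatrexate against vehicle from 1 to 5. These alternatives were added after seeing the data: summed reads without each library or with non-targeting scaling, paralogue differences without each library, and the replicate block in the 2 day 10 groups alone, by rank aggregation or limma, neither of which called any of the 7. With non-targeting scaling, summed reads reversed CHKB (−0.21 in vehicle and −0.24 in pralatrexate against baseline), SPHK1 (−0.12 and −0.027, neither called) and CERK (−0.21 and −0.26), and ETNK1 in vehicle (−0.30), and called ETNK2 in vehicle (−0.37, FDR 0.00013) and ETNK1 in pralatrexate (−0.34, FDR 9.6e-05) lower, which TMM had not. SPHK2 (−0.68 and −0.59) and CHKA (−0.58 and −0.68) kept their direction and call. This scaling moved all genes down against baseline, so these FDRs alone do not set the 7 genes apart from other genes. Without 1 library, SPHK1 minus SPHK2 changed by 0.54 to 0.67 in vehicle and 0.44 to 0.68 in pralatrexate against baseline, and CHKA minus CHKB by −0.38 to −0.22 and −0.50 to −0.27. Between pralatrexate and vehicle both pairs took either sign (−0.16 to 0.08 and −0.19 to 0.03). The causes were not tested.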
